A study of Homo sapiens with 4 samples.

Results

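Expression of 41 genes of homologous recombination, the Fanconi anaemia pathway, mismatch repair and the ATR/ATM checkpoint was followed in HaCaT, a human keratinocyte line that became immortal in culture on its own, with and without overexpression of TCN1, which encodes the vitamin B12-binding protein transcobalamin 1. The members were chosen by name, with earlier results of these data known. They are 20 recombination genes, 12 Fanconi genes, 3 mismatch genes and 6 checkpoint genes, all 41 of them found once among the 29209 genes listed in each library. Both groups are HaCaT: cells labelled negative control (NC) and cells given TCN1 by lentivirus (TCN1_OE), with 2 polyA RNA libraries each, numbered 1 and 2 in the labels. Cells stood in medium with serum and were taken into Trizol after 48 hours, per the labels' protocols. Nothing in the labels says what the control cells were given, which promoter drives TCN1, or whether cells were cloned. Nor do they say that the 2 libraries of a group are 2 cultures, so every p-value here rests on the spread between libraries, which may be technical.

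As background, recombination copies an intact sister chromatid to mend a double-strand break or a broken replication fork, the Fanconi proteins unhook crosslinks between DNA strands, and mismatch proteins remove bases that the polymerase paired wrongly. ATR and its effector kinase CHEK1 hold back the cell cycle while single-stranded DNA persists. Many genes of these pathways are transcribed mainly in late G1 and S phase, under E2F factors.

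The NC libraries held 19973550 and 11593377 counts and the TCN1_OE libraries 16586500 and 14756073, of which the 41 members took 0.246% and 0.231% in NC and 0.208% and 0.197% in TCN1_OE. TCN1 itself had 50 and 17 counts in NC and 1700 and 1253 in TCN1_OE, a log2 fold change of 5.48 ± 0.20 (edgeR adjusted p 2.4e-06). The keratinocyte markers KRT5 and KRT14 averaged 2124.5 and 3249.8 FPKM in NC (fragments scaled to gene length and library total). The marker lists of fibroblasts (4 of 7 genes listed), endothelium (3 of 5) and immune cells (7 of 9) summed to between 0.921 and 3.06 FPKM in every library and overlapped between the groups. Melanocyte markers (5 of 6 listed) summed to 2.69 and 2.66 FPKM in NC and to 3.06 and 2.86 FPKM in TCN1_OE, with DCT and TYRP1 at 0.0161 FPKM or less throughout, and their part in the results was not tested. The second principal component of log2 CPM (counts scaled to the library total), with 33.2% of the variance, set both replicates 1 apart from both replicates 2. The share of mitochondrially encoded counts was 5.33% and 5.13% in NC and 6.04% and 5.65% in TCN1_OE.

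Most of the repair genes lay lower in TCN1_OE, by a small amount each. Of the 5 members with a positive value, FAN1, a Fanconi-associated nuclease gene, rose to a log2 fold change of 1.70. The other positive members, FANCF, ATM, RMI2 and PMS2, stood between 0.0013 and 0.12. Of the 41 members, all of which were tested, 36 lay below 0 in log2 fold change (TCN1_OE over NC), and the median was -0.22. Over all 15113 genes tested, 49.7% were negative and the median was 0.0016. The FPKM values of both TCN1_OE libraries lay below both NC libraries in 24 members, or 58.5%, against 21.0% of all genes tested. FAN1 was the single member with both TCN1_OE values above both NC values, a pattern found in 21.7% of all genes tested. Since the members were chosen with earlier results of these data known, these shares describe them and are no test.

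At an adjusted p under 0.05 (edgeR, quasi-likelihood test, Benjamini-Hochberg adjustment over all genes), 0 members were lower and 1, FAN1, was higher, against 0.212% of all genes called lower and 0.285% called higher. At an unadjusted p under 0.05 the same test gave 16 lower members and 1 higher, against 6.81% and 6.00% of all genes. DESeq2 called 4 members lower, EXO1, XRCC2, BLM and MSH6, against 0.928% of the genes to which it gave an adjusted p, and 1 higher, FAN1, against 0.903%. Limma on log2(FPKM + 0.5), over genes of at least 1 FPKM on average, called 0 of the 39 members it tested and did not test FAN1. EdgeR fits that left out 1 library set 1 library against 2, took the spread from the group that kept both, and called a larger share of all genes than the fit of 4 libraries. They called 1 member lower without NC replicate 1 (EXO1; 0.889% of all genes tested were lower), 3 without NC replicate 2 (EXO1, BLM and MSH6; 0.650%), 3 without TCN1_OE replicate 1 (EXO1, XRCC2 and MSH6; 0.737%) and 1 without TCN1_OE replicate 2 (EXO1; 0.721%), and such calls are no independent support for a member. In bulk RNA a smaller share of cells that express a gene and less of its RNA per cell cannot be told apart.

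**Figure D1:**
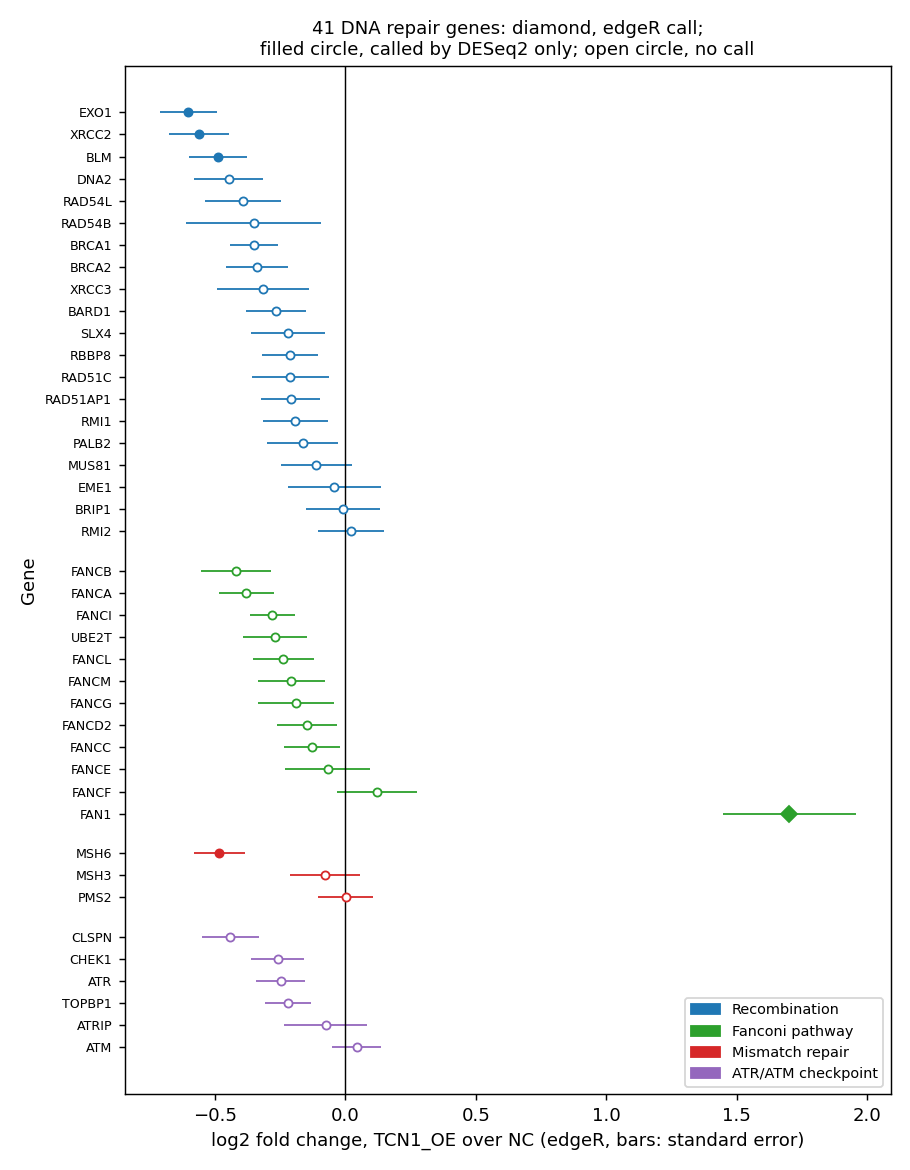
Log2 fold change of each of the 41 genes, TCN1_OE over NC, with its standard error from edgeR, in 4 role groups ordered by value. The diamond marks a gene called by edgeR, filled circles those called by DESeq2 alone, and open circles those called by neither. The 36 genes left of 0 lie between -0.60 and -0.01, and FAN1 stands alone at 1.70.

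The recombination, Fanconi and checkpoint genes had close medians, and the mismatch genes lay nearer to 0. The 20 recombination genes had a median log2 fold change of -0.24 with 19 negative, the 12 Fanconi genes -0.20 with 10 negative, and the 6 checkpoint genes -0.23 with 5 negative. The 3 mismatch genes were split, with a median of -0.08, which lay at -0.23 without TCN1_OE replicate 1 and at 0.011 without TCN1_OE replicate 2. The summed level of the recombination genes was 152.8 and 141.8 FPKM in NC and 124.3 and 118.7 FPKM in TCN1_OE. That of the Fanconi genes was 75.4 and 69.5 against 62.7 and 63.3 FPKM. The checkpoint genes summed to 59.8 and 56.5 FPKM in NC and to 51.6 and 48.1 FPKM in TCN1_OE. In these 3 sums both TCN1_OE libraries lay below both NC libraries. The mismatch sums were 18.1 and 16.7 against 16.3 and 14.7 FPKM, which also do not overlap, though by a margin smaller than the gap between the libraries of either group. Differences between the role groups were not tested.

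The members' difference was seen between libraries of either number. Between the replicates 1 the median over the 41 members was -0.25 on the log2 CPM scale, with 36 lower in TCN1_OE. Between the replicates 2 it was -0.19, with 34 lower. Within a group the members also shifted, by a median of -0.08 from NC replicate 1 to NC replicate 2 and of -0.04 within TCN1_OE.

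The promoters of the genes with the smallest p, FAN1, EXO1 and MSH6, are given here from 250 bases before to 30 after a RefSeq start (GRCh38.p14), since genes of this kind are known for E2F sites. FAN1 is at chr15:30903602-30903881, EXO1 at chr1:241847954-241848233 and MSH6 at chr2:47782895-47783174, all on the plus strand. Capitals mark matches on either strand to an E2F site (TTTGGCGC, TTTCCCGC, TTTGCCGC or TTTCGCGC), a cell cycle genes homology region, CHR (TTTGAA or TTCGAA) or a CCAAT box (CCAAT).
FAN1: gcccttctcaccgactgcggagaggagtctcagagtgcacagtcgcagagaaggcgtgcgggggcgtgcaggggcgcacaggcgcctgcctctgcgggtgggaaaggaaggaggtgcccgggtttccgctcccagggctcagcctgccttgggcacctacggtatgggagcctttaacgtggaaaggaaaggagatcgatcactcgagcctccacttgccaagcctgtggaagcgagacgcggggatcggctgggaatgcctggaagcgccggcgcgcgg
EXO1: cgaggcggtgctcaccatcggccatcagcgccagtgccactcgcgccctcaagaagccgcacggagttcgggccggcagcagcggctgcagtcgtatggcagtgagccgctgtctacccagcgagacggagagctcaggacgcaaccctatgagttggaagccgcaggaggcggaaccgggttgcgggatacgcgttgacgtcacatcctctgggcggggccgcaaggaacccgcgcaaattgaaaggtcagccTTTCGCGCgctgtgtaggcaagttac
MSH6: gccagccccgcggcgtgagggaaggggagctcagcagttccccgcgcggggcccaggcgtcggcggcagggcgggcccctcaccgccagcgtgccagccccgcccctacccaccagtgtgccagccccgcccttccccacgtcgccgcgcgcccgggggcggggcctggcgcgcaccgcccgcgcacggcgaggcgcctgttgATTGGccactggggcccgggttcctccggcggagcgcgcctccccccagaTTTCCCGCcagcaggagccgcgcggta
Counted from 1 at the start, EXO1 had an E2F match at bases 5 to 12 and MSH6 at bases 4 to 11, and MSH6 had a reversed CCAAT box from -47 to -43. FAN1 had no match to any of the letters in this window. FAN1 and EXO1 had 2 start windows each and MSH6 had 4, and the window with the most E2F matches was the one shown. The E2F matches of EXO1 and MSH6 shown here were therefore favoured by that choice.

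Another 4 members, chosen after their values were seen, had an E2F match within 30 bases of a start, shown in capitals in the 30 bases on each side. They are CLSPN (chr1:35769949-35770008, minus strand), FANCD2 (chr3:10026407-10026466, plus strand), TOPBP1 (chr3:133661912-133661971, minus strand) and XRCC2 (chr7:152676112-152676171, minus strand), each sequence being written along the strand of the gene.
CLSPN: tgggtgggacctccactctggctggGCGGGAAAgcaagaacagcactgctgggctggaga
FANCD2: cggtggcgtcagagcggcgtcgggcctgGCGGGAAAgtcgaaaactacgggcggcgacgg
TOPBP1: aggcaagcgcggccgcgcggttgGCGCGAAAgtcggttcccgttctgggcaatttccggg
XRCC2: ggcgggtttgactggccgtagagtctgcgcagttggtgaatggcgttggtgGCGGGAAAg
The table held windows from 250 bases before to 50 after a start for 37 members (not RAD54B, DNA2, RMI2 and FANCI), and for 27305 genes in all; a gene counted if any of its windows matched, and some have several. An E2F match was found in 11 of the 37 members (29.7%), in 4.0% of all genes with a window and in 6.5% of those that were also tested. The CCAAT box was found in 51.4% of the members, in 39.7% of all genes with a window and in 42.9% of those also tested. For the CHR letters these shares were 10.8%, 19.5% and 15.6%. The 11 members with a match had a median log2 fold change of -0.22 and the 26 without one -0.21, a difference that was not tested. Matches within 30 bases of a start were in EXO1 (-0.60), XRCC2 (-0.56), MSH6 (-0.48), CLSPN (-0.44), TOPBP1 (-0.22) and FANCD2 (-0.15), and matches farther away in FANCA (-0.38), RMI1 (-0.19), FANCC (-0.13), MSH3 (-0.08) and PMS2 (0.0013). The split by distance was made after the values were seen and was not tested. Among all tested genes with a window, the median was -0.05 for the 693 with an E2F match and -0.0076 for the others.

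EXO1, XRCC2, BLM and DNA2 had the lowest values among the recombination genes, between -0.60 and -0.45. EXO1 (ENSG00000174371, chromosome 1, 241847967 to 241895148), the exonuclease that resects broken ends and also serves mismatch repair, was measured at 14.1 and 13.5 FPKM in NC and at 9.09 and 9.17 FPKM in TCN1_OE. The groups stood far apart, and the gap between the groups was many times the gap within them. EXO1 differed by -0.60 ± 0.11 (SE) in log2 fold change, with an edgeR adjusted p of 0.0529, just outside the threshold, and a DESeq2 adjusted p of 0.00598. In the fits that left out 1 library its edgeR adjusted p ran from 0.0196 to 0.0499, in a setting that called more genes overall. DNA2, a nuclease and helicase of the same resection step, stood at 9.23 and 7.69 FPKM in NC and at 6.71 and 5.77 FPKM in TCN1_OE. Its log2 fold change was -0.45 ± 0.13, and neither edgeR (adjusted p 0.194) nor DESeq2 (adjusted p 0.222) called it. RBBP8, which starts resection with the MRE11 complex, had a smaller value of -0.21 ± 0.11.

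BLM, the helicase mutated in Bloom syndrome, had 8.94 and 7.89 FPKM in NC and 6.15 and 5.90 FPKM in TCN1_OE. Both TCN1_OE values lay below both NC values, with a log2 fold change of -0.49 ± 0.11, an edgeR adjusted p of 0.0984 and a DESeq2 adjusted p of 0.0464. RMI1 and RMI2, its partners among the members in the complex that dissolves double Holliday junctions, had values nearer to 0. RMI1 stood at 20.2 and 17.2 FPKM in NC and 17.8 and 15.1 FPKM in TCN1_OE, with groups that overlap, and a log2 fold change of -0.19 ± 0.12. RMI2 had 7.03 and 7.74 FPKM in NC and 7.53 and 7.47 FPKM in TCN1_OE, with a log2 fold change of 0.02 ± 0.13, and 7.2% of its exonic bases lie under another gene.

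XRCC2, a paralog of the recombinase that helps to load the recombinase filament, was at 6.70 and 6.39 FPKM in NC and at 4.64 and 4.27 FPKM in TCN1_OE. The groups lay far apart relative to their own spread, with a log2 fold change of -0.56 ± 0.12, an edgeR adjusted p of 0.0724 and a DESeq2 adjusted p of 0.0359. The other paralogs of the list, RAD51C and XRCC3, overlapped between the groups, at -0.21 ± 0.15 and -0.31 ± 0.18. For XRCC3, 76.7% of the exonic bases lie under KLC1 on the other strand, and reads from the 2 genes cannot be told apart where the kit keeps no strand. The translocase RAD54L had 5.39 and 5.16 FPKM in NC and 3.96 and 4.10 FPKM in TCN1_OE, with 25.1% of its exonic bases under LRRC41. RAD54L differed by -0.39 ± 0.14 in log2 fold change (edgeR adjusted p 0.285, DESeq2 adjusted p 0.491). Its relative RAD54B held 45 to 105 counts in each library and stood at -0.35 ± 0.26. FSBP shares 59.1% of the exonic bases of RAD54B, and how shared reads were counted is not given in the sources used here.

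BRCA1 and BARD1, which together form a ubiquitin ligase acting in recombination, both lay lower. BRCA1 (ENSG00000012048, chromosome 17, 43044295 to 43170245) had 10.2 and 9.48 FPKM in NC and 7.66 and 7.81 FPKM in TCN1_OE, a log2 fold change of -0.35 ± 0.09 with an edgeR adjusted p of 0.143. BARD1 had 5.49 and 5.29 FPKM in NC and 4.70 and 4.30 FPKM in TCN1_OE, with -0.26 ± 0.11. For both genes the groups did not overlap, and neither passed the edgeR fit described above or DESeq2. BRCA2, which places the recombinase on single-stranded DNA, went from 3.97 and 3.72 to 3.30 and 2.81 FPKM, with -0.34 ± 0.12. PALB2, the bridge between BRCA1 and BRCA2, overlapped between the groups at -0.16 ± 0.14. The helicase BRIP1, a BRCA1 partner also known as FANCJ, showed no difference larger than its error, at -0.01 ± 0.14, with 1.56 and 1.48 FPKM in NC and 1.71 and 1.32 FPKM in TCN1_OE.

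The remaining recombination genes had small values. RAD51AP1, which binds the recombinase, stood at -0.21 ± 0.11. The nuclease genes MUS81 and EME1, whose products cut joint molecules together, stood at -0.11 ± 0.14 and -0.04 ± 0.18, and their scaffold SLX4 at -0.22 ± 0.14. Other genes cover 14.1% of the exonic bases of MUS81 and 16.4% of those of EME1. The RAD51AP1 values did not overlap, at 16.6 and 15.4 FPKM in NC and 14.0 and 13.8 FPKM in TCN1_OE.

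FAN1 (ENSG00000198690, chromosome 15, 30903852 to 30943108, plus strand), a nuclease recruited by ubiquitinated FANCD2, was the one member past the threshold. NC held 43 and 28 counts of it and TCN1_OE 110 and 121, or 0.128 and 0.144 against 0.394 and 0.488 FPKM. The lower TCN1_OE value was well above the higher NC value. FAN1 rose by 1.70 ± 0.25 on the log2 scale, 3.25-fold, with an edgeR adjusted p of 0.0323, and ranked at 28 among the 15113 genes by p. Leaving out 1 library at a time gave log2 fold changes from 1.52 to 1.85. Limma on log2(FPKM + 0.5) without a filter gave 0.56 with an adjusted p of 0.524, and FAN1 was not tested where a mean of at least 1 FPKM was asked for.

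This call rests on a low level and an unsettled gene model. The deposited FPKM values imply a gene length of 16814 bp for FAN1, against 6194 bp of exons in GENCODE 29, a ratio of 2.71. Such a mismatch was not particular to FAN1. The median ratio over the 41 members was 1.26, and FANCL (15.75), FANCB (3.7) and PMS2 (2.86) had larger ones. Of the exonic bases of FAN1, 24.3% lie under MTMR10, which runs the other way. MTMR10 had 248 and 136 counts in NC and 198 and 126 in TCN1_OE, with a log2 fold change of -0.24 ± 0.20. Which part of the FAN1 locus the added counts came from was not tested.

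Subunits of the Fanconi core complex, the ubiquitin ligase that marks the FANCD2-FANCI clamp, were split by size of difference. FANCA had 5.67 and 5.79 FPKM in NC and 4.27 and 4.55 FPKM in TCN1_OE, a log2 fold change of -0.38 ± 0.11 with an edgeR adjusted p of 0.168. The groups did not overlap, and 23.6% of the exonic bases of FANCA lie under ZNF276. FANCB stood at 2.14 and 1.91 FPKM in NC and at 1.55 and 1.50 FPKM in TCN1_OE, with -0.42 ± 0.13. The FANCB groups did not overlap either, but neither FANCA nor FANCB passed the edgeR fit described above or DESeq2. FANCL, which carries the ligase activity, had 1.36 and 1.18 FPKM in NC and 1.11 and 1.05 FPKM in TCN1_OE, with -0.24 ± 0.12. Its deposited FPKM implies a length of 37979 bp against 2412 bp in GENCODE 29, and that of FANCB implies 13297 bp against 3593 bp. Levels are therefore not comparable between the subunits. The subunits FANCC, FANCG and FANCE stood at -0.13 ± 0.11, -0.19 ± 0.15 and -0.07 ± 0.16. FANCF, an adaptor subunit, had 6.62 and 5.37 FPKM in NC and 6.30 and 6.84 FPKM in TCN1_OE, with a positive value of 0.12 ± 0.15. FANCM, the anchor that brings the core complex to stalled forks, stood at -0.21 ± 0.13.

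UBE2T, the E2 enzyme of the same reaction, stood at 24.5 and 20.7 FPKM in NC and at 18.8 and 19.0 FPKM in TCN1_OE, a log2 fold change of -0.27 ± 0.12. FANCI had 16.4 and 15.3 FPKM in NC and 13.7 and 12.5 FPKM in TCN1_OE, with -0.28 ± 0.09 and an edgeR adjusted p of 0.213. The groups of both genes did not overlap. FANCD2, the other partner of the clamp, had 4.16 and 4.52 FPKM in NC and 4.15 and 3.69 FPKM in TCN1_OE, at -0.15 ± 0.12. TCN1_OE replicate 1 and NC replicate 1 were nearly equal for FANCD2.

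**Figure D2:**
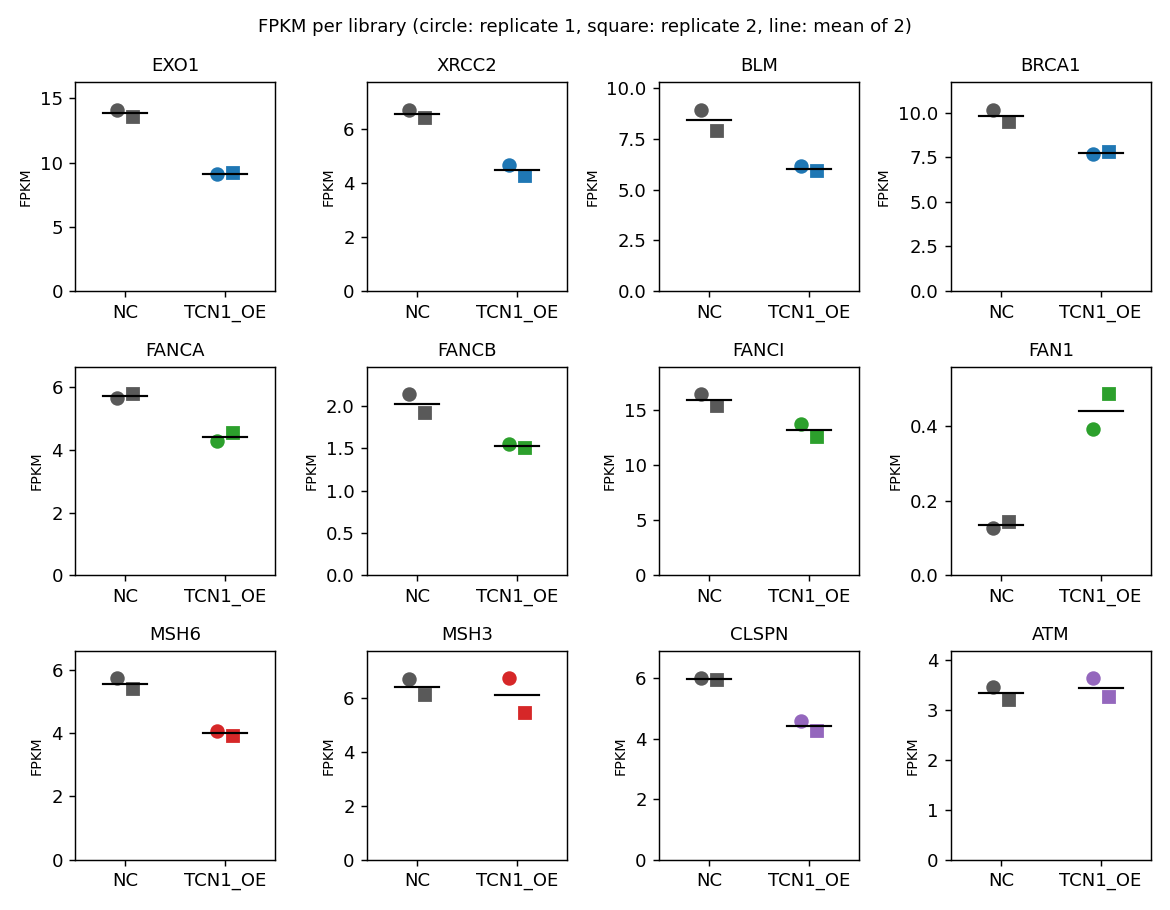
FPKM of 12 members in each library, with the mean of each group as a line and each vertical axis starting at 0. EXO1, XRCC2, BLM, BRCA1, FANCA, FANCB, FANCI, MSH6 and CLSPN lay lower in both TCN1_OE libraries, FAN1 higher in both, and MSH3 and ATM overlapped.

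Mismatch repair was represented by both alternative partners of the recognition dimer and by 1 subunit of the endonuclease that follows it. MSH6 (ENSG00000116062, chromosome 2, 47695530 to 47810101), the partner that recognises single mismatched bases, had 5.74 and 5.39 FPKM in NC and 4.08 and 3.91 FPKM in TCN1_OE. The groups were clearly apart, with a log2 fold change of -0.48 ± 0.10, an edgeR adjusted p of 0.0678 and a DESeq2 adjusted p of 0.017. FBXO11, on the other strand, covers 16.2% of its exonic bases in GENCODE 29, whose gene model begins well before the RefSeq start shown. MSH3, the partner for longer loops, had 6.69 and 6.10 FPKM in NC and 6.73 and 5.44 FPKM in TCN1_OE, at -0.08 ± 0.13. PMS2, the endonuclease subunit, had 5.66 and 5.17 FPKM in NC and 5.54 and 5.34 FPKM in TCN1_OE, with a value of 0.0013 ± 0.11. Both MSH3 and PMS2 overlapped between the groups. PMS2 has near-identical pseudogenes, of which PMS2P4 had 68 and 41 counts in NC and 88 and 58 in TCN1_OE, and how the authors' counting split shared reads is not given in the sources used here.

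In the checkpoint group CLSPN, CHEK1, ATR and TOPBP1 lay lower, and ATRIP and ATM overlapped between the groups. CLSPN encodes claspin, the adaptor through which ATR activates CHEK1, and it had 6.00 and 5.94 FPKM in NC and 4.59 and 4.24 FPKM in TCN1_OE. CLSPN differed by a log2 fold change of -0.44 ± 0.11 (edgeR adjusted p 0.127, DESeq2 adjusted p 0.104). CHEK1, the effector kinase, had 15.5 and 14.1 FPKM in NC and 12.8 and 12.0 FPKM in TCN1_OE, with -0.26 ± 0.10. ATR, the sensor kinase, had 4.72 and 4.49 FPKM in NC and 4.06 and 3.72 FPKM in TCN1_OE, with -0.25 ± 0.09, and TOPBP1, its activator, went from 26.6 and 25.5 to 23.6 and 21.3 FPKM, with -0.22 ± 0.09. These 4 genes had groups that did not overlap, and none passed the edgeR fit described above or DESeq2. ATRIP, the obligate partner of ATR, had 3.48 and 3.27 FPKM in NC and 2.93 and 3.51 FPKM in TCN1_OE, at -0.08 ± 0.16, and TREX1 covers 27.9% of its exonic bases. ATM, the kinase that answers double-strand breaks, had 3.47 and 3.20 FPKM in NC and 3.64 and 3.25 FPKM in TCN1_OE, at 0.04 ± 0.10.

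Ratios between partner or related genes were compared in each library, for 9 pairs picked after the values were seen. MSH6 and MSH3 are alternative partners rather than a pair, and ATR and ATM are separate kinases. The smallest two-sided p that exact permutation of 2 against 2 libraries can give is 0.333, so no ratio could pass. The ratio of MSH6 to MSH3 was 0.858 and 0.883 in NC and 0.606 and 0.718 in TCN1_OE, a mean difference of -0.40 on the log2 scale (exact p = 0.333). The ratio of BLM to RMI2 was 1.27 and 1.02 in NC and 0.816 and 0.790 in TCN1_OE, with a mean log2 difference of -0.50, and that of BLM to RMI1 differed by -0.29. The ratio of ATR to ATM was 1.36 and 1.40 in NC and 1.12 and 1.14 in TCN1_OE, with a mean log2 difference of -0.29. For these 4 pairs the groups did not overlap, nor did they for FANCA to FANCG. The share of other gene pairs whose ratios do not overlap was not counted, so these separations only describe the chosen pairs. The pairs are also not independent, since BLM and ATR recur among them. The ratios of BRCA1 to BARD1, MUS81 to EME1, FANCI to FANCD2 and ATR to ATRIP overlapped between the groups.

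**Figure D3:**
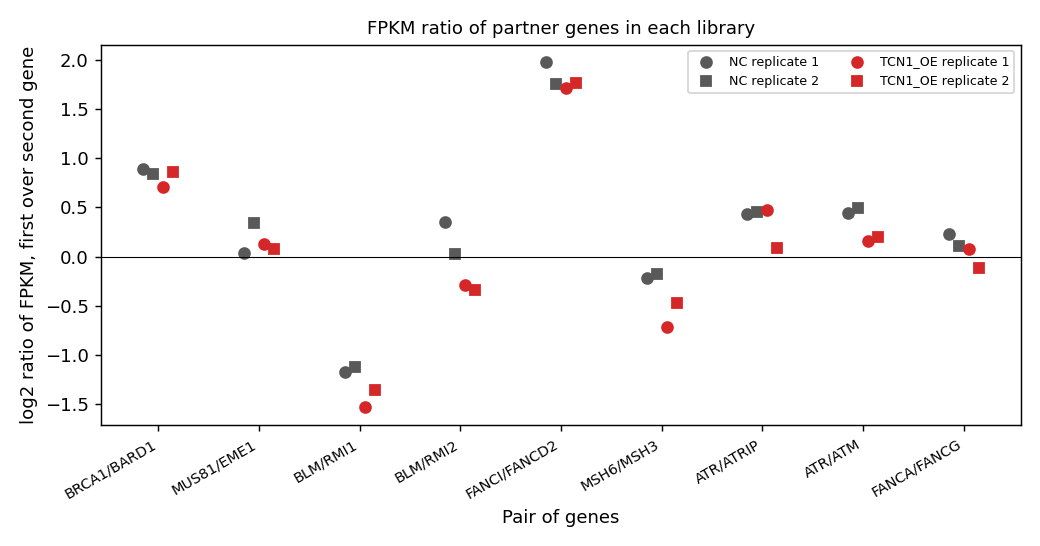
Log2 ratio of FPKM between 2 partner or related genes in each of the 4 libraries. NC (grey) and TCN1_OE (red) separate for MSH6/MSH3, BLM/RMI1, BLM/RMI2, ATR/ATM and FANCA/FANCG, and mix for the other pairs.

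Other genes of DNA repair, 135 in 7 lists that leave out the members, lay lower to a smaller extent. Of the 129 tested, 99 were negative, and the median log2 fold change was -0.11. The difference from the members was not tested, and both sets were chosen with earlier results of these data known. EdgeR called 0 of them in either direction. At an unadjusted p under 0.05, 23 were lower (17.8%) and 1 was higher, against 6.81% and 6.00% of all genes tested. The other checkpoint genes had a median of -0.22 with 19 of 23 negative, and the smallest p belonged to the cell cycle phosphatase CDC25A at -0.64 ± 0.14 (edgeR adjusted p 0.0878), which DESeq2 called, and to the ATR stability factor TTI1 at -0.39 ± 0.11. The other Fanconi genes had -0.20 with 15 of 18 negative, and the smallest p belonged to UHRF1 at -0.46 ± 0.11 and RFWD3 at -0.35 ± 0.09. Other mismatch and associated synthesis genes, such as PCNA at -0.28 ± 0.08 and POLD1 at -0.31 ± 0.13, were negative in 7 of 7, with a median of -0.24.

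The other 4 lists had medians closer to 0. The other recombination genes had a median of -0.07 over 31 tested, with MCM8 at -0.46 ± 0.13 and RPA1 at -0.19 ± 0.08. End joining had -0.07 over 15, with PRKDC at -0.30 ± 0.08 and LIG3 at -0.32 ± 0.12 by smallest p. The polymerase gene POLM, named after the values were seen, had the highest value of that list at 0.33 ± 0.13, with groups that did not overlap, and did not pass the adjusted threshold in edgeR. Nucleotide excision repair had -0.08 over 17, with RAD23B at -0.12 ± 0.08 and ERCC8 at -0.21 ± 0.15, and 0 members at an unadjusted p under 0.05. Base excision repair had -0.13 over 18, with FEN1 at -0.36 ± 0.09 and NEIL3 at -0.57 ± 0.18. In that list APEX1 stood at -3.29 ± 2.13 on 42 and 575 counts in NC and 44 and 37 in TCN1_OE, so its value rested on NC replicate 2, and PARP2 stood at -1.36 ± 0.53 on 6 to 25 counts, the latter named for its size after the values were seen.

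Cell cycle genes lay on the same side of 0 as most members. All 25 tested genes of a replication licensing and S phase list were negative, with a median of -0.36. The helicase loader CDC6, at -0.57 ± 0.09, was the 1 gene of this list that edgeR called lower (adjusted p 0.0323), against 0.212% of all genes tested. MCM10 stood at -0.64 ± 0.12. At an unadjusted p under 0.05 in edgeR, 19 of the 25 (76%) were lower, against 6.81% of all genes tested. Both TCN1_OE libraries lay below both NC libraries in 24 of them (96%), against 21.0% of all genes tested. Of 23 genes of G2/M and mitosis, 20 were negative, with a median of -0.21, among them CDC20 and BIRC5 at -0.33 ± 0.09 each. EdgeR called 0 of the 23, with 11 (47.8%) lower at an unadjusted p under 0.05, against 6.81% of all genes tested. The mitochondrially encoded genes were positive in 11 of 12, with a median of 0.17, and MT-ATP6 and MT-CO3 stood at 0.24 ± 0.09 and 0.18 ± 0.08. Keratinocyte markers were positive in 8 of 10, with DSG3 at 0.18 ± 0.08 and COL17A1 at 0.20 ± 0.10. The part of cell cycle composition or RNA makeup in the members' difference was not tested.

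**Figure D4:**
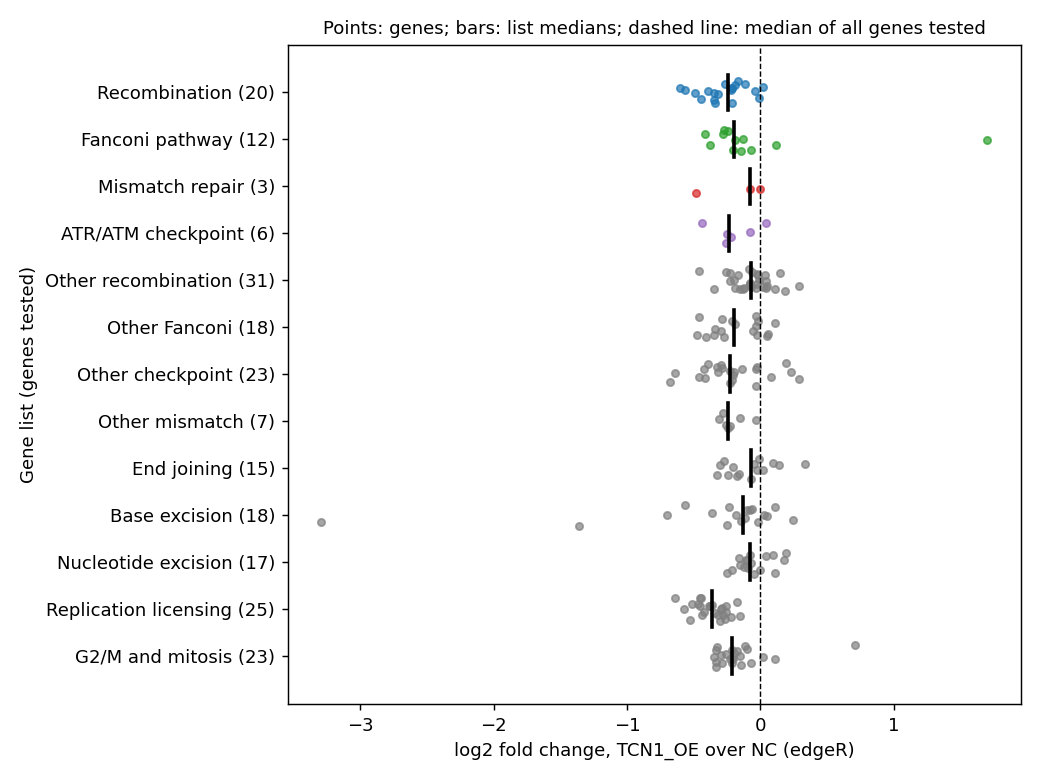
Log2 fold change of every tested gene in the 4 member groups (coloured), 7 lists of other repair genes and 2 cell cycle lists (grey), with list medians as bars. The medians run from -0.36 for replication licensing to -0.07 for other recombination and end joining genes; the points beyond 1 in size are APEX1 at -3.29, PARP2 at -1.36 and FAN1 at 1.70.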

How the data were processed

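PolyA RNA of 4 libraries was sequenced from NEBNext Ultra libraries, a kit that does not mark strand. Per the submitters' processing notes, the authors aligned reads with HISAT2 and counted them per gene with HTSeq 0.13.5 on GRCh38. Which annotation they counted on, and how strand and multi-mapped reads were set, is not given in the sources used here. In each deposited file the values are a raw count and an FPKM per gene, and the authors' FPKM follows from the deposited count, since each value above 0 implied a whole gene length within 1e-04 bp in 100% of cases. Counts were tested with edgeR 4.0.16 in R 4.3.3 (quasi-likelihood, TMM factors, robust, group only) on the 15113 genes kept by filterByExpr at its minimum count of 10, with Benjamini-Hochberg adjustment. Members were read from that fit, and errors of log2 fold changes are standard errors. DESeq2 1.42.0, limma 3.58.1 on log2(FPKM + pseudocount), other scalings and filters, a replicate term and the loss of each library were alternatives. The fit was tested on simulated counts of 2 against 2 libraries. It recovered 36 of 67 genes changed 1.5-fold and 61 of 67 changed 2-fold, with 6 false calls. No change smaller than 1.5-fold was simulated, and most members differed by less. Exon overlaps came from GENCODE 29, and promoters from RefSeq on GRCh38.p14. The members and lists were chosen with earlier results of these data known. Genes given with every library's value were called members, those of smallest p in each role group, and those with a positive value, plus some added for their partners; of other lists, the 2 of smallest p. Library totals were 11593377 to 19973550 counts, but libraries of a group differed by more than counting error (chi-square per degree of freedom 5.42 in NC and 5.5 in TCN1_OE), so precision rests on the spread between 2 libraries a group.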

Additional observations from a re-analysis of the deposited data

How the results depend on the processing

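The direction of the members as a group held in all 15 alternatives: between 34 and 39 members were negative, and the median ran from -0.29 to -0.17. Of 607 values of single members under an alternative, 546 kept their direction and call, 44 were newly called and 1 lost its call (FAN1 with limma and no filter, at 0.56). The number of calls depended on the setting. Of 15113 genes tested, lower and higher calls were 32 and 43, and became 53 and 78 with upper-quartile factors and 63 and 69 with library totals alone. With no filter on low counts they were 275 and 200 of 29209 genes. With DESeq2 they were 113 and 110 of the 12183 genes given an adjusted p. With genes of at least 1 FPKM they were 14 and 31 of 11470 genes. With limma they were 0 and 1 at a pseudocount of 0.5 or 1, and 0 and 0 at a pseudocount of 0.1 or with no filter. Lower members, 0 in edgeR, were 1 with upper-quartile factors, 1 with library totals alone, 8 with no filter (BRCA1, CLSPN, DNA2, FANCA and the 4 of DESeq2) and 4 with DESeq2; higher members went from 1 to 0 with genes of at least 1 FPKM and in all 4 limma fits.

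With the replicate number as a block, edgeR called 1655 genes lower (11.0%) and 1216 higher, and 22 members lower beside FAN1, among them BRCA1, BARD1, CLSPN, CHEK1, ATR and TOPBP1. The labels give no shared culture or day behind a number, and the deviations of same-numbered libraries correlated at 0.15. Leaving out 1 library, so that the lone sample is assumed to vary like the other group, gave 106 to 142 lower and 104 to 188 higher genes, 1 to 3 lower members, and a mismatch median from -0.23 to 0.011. The lower members were 1 without NC replicate 1 or TCN1_OE replicate 2 and 3 without NC replicate 2 or TCN1_OE replicate 1.

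In 9 members near 0 the sign changed. BRIP1 was 0.013 with upper-quartile factors and 0.0044 with genes of at least 1 FPKM, and PMS2 was -0.016 with no filter on low counts. Leaving out 1 library gave -0.20 to 0.15 for BRIP1 (0.022 without NC replicate 1), -0.056 to 0.062 for PMS2 (-0.016 without TCN1_OE replicate 1), -0.14 to 0.069 for EME1 (0.046 without TCN1_OE replicate 1), -0.058 to 0.095 for RMI2, -0.0092 to 0.28 for FANCF, -0.032 to 0.11 for ATM (-0.0074 without NC replicate 2), -0.24 to 0.080 for FANCE, -0.23 to 0.057 for ATRIP and -0.23 to 0.052 for MSH3. Chosen after seeing the data, a count over the 16 members with no exonic bases under another gene gave 15 negative, with a median of -0.24. The causes of these changes were not tested. Why most members missed the adjusted threshold in the edgeR fit without a block was not tested.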
